A study of Rattus norvegicus with 28 samples.

Results

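The genes described here encode 8 receptors that couple to inhibitory G proteins of the Gi/o class and that were measured by RNA-seq in rat dorsal root ganglia (DRG). They are Oprm1, Oprl1, Cnr1, Gabbr2, Galr1, Chrm2, Grm7 and Npy2r, 8 of the 32754 Ensembl genes in the count table. The members were chosen by name, as inhibitory receptors among the receptor genes that the study discussed, and Npy2r was found by its symbol in the study's gene table. That table was selected in part on the libraries used here, so the choice of these genes is not independent of the data.

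The RNA came from 12-week-old male Sprague-Dawley rats 48 h after complete Freund's adjuvant (CFA) was injected into the hind paw. CFA provokes a local inflammation with lasting mechanical hypersensitivity, and rats without hypersensitivity had not been used by the authors. Each of the 2 libraries, CFA replicate 1 and CFA replicate 2, held the poly(A) RNA of the ipsilateral L4 to L6 ganglia of 1 rat. The naïve libraries and those of the chronic constriction injury of the sciatic nerve were not analysed here for RNA, so each value below describes the inflamed state, and no change from the naïve state was tested.

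Receptors of this class respond to a ligand by releasing the α subunit and the βγ pair of a G protein. The α subunit slows adenylyl cyclase and so lowers cyclic AMP, while the βγ pair closes voltage-gated calcium channels and opens inwardly rectifying potassium channels. In sensory neurons these steps reduce transmitter release at the central and peripheral endings, and opioids, cannabinoids and baclofen are known to act on them. The DRG holds the cell bodies of sensory neurons together with satellite glia, Schwann cells, vessels and connective tissue, and bulk RNA of a whole ganglion does not show which cell a transcript came from.

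The libraries held 10520647 counts on genes for CFA replicate 1 and 28825688 for the other, so the values of replicate 2 are the more precise ones. Counts were scaled to these totals and are given as CPM, the usual unit of reads scaled to library size, with exact Poisson intervals at 95% that cover counting error only. The markers of the labelled tissue were abundant in both libraries. These markers, and those of other cells below, were tied to identifiers through gene tables that the study had selected, in part on these libraries. Their levels are therefore not a neutral account of the cells in the ganglion. The 8 markers of sensory neurons lay between 518 and 11580 CPM, led by the neurofilament genes, and the 11 markers of nociceptors between 81.0 and 1094 CPM. Markers of other cells of the ganglion were also present. The 6 genes listed for satellite glia lay between 3.73 CPM and 1145 CPM, the value of S100b. The range was 14.4 to 2035 CPM for 7 genes of myelinating Schwann cells and 14.1 to 556 CPM for 5 genes of vessels and fibroblasts. The muscle gene Myh6 had 13.0 CPM in replicate 1 and 7.87 CPM in replicate 2, and the mast cell gene Mcpt1l1 had 1.14 and 0.94 CPM. In bulk tissue, fewer cells of a type and less RNA per cell cannot be told apart.

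All 8 receptor genes were detected in both libraries, each with at least 91 counts in replicate 1 and at least 245 in replicate 2. Their mean values ran from 8.72 CPM for Npy2r to 231 CPM for Gabbr2, with a median of 20.9 CPM, compared with a median of 21.4 CPM over the 15115 genes that, like all 8 receptors, reached 10 counts in each library. Over the 21122 genes with at least 1 count the median was 9.09 CPM. Summed over the 8 genes, the receptors took 396 CPM in replicate 1 and 421 CPM in replicate 2. CPM is a share of reads and is not divided by transcript length, which was not used here, so the order of the genes given below is an order of reads and not of transcripts.

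Gabbr2 (ENSRNOG00000008431) encodes the subunit of the GABA-B receptor that contacts the G protein, whereas its partner subunit binds GABA. It had 2365 counts, or 225 CPM, in replicate 1 and 6841 counts, or 237 CPM, in replicate 2, a mean of 231 ± 8.86 CPM (SD, n = 2). Of all detected genes, 96.4% had a lower mean CPM. Gabbr2 drew more reads than any other of the 8 genes in each library, and its lowest value lay above the highest value of Oprl1, the next in order.

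As the gene with the most reads, Gabbr2 is shown with the 250 bases before its transcription start in the RefSeq annotation of GRCr8, on the minus strand at chr5:66083696-66083945. These positions belong to GRCr8 and not to rn6, to which the reads had been aligned. Capitals mark the letters of a GC box (GGGCGG) and of TGACG, the core of a cyclic AMP response element, which reads CGTCA on the other strand.
Gabbr2: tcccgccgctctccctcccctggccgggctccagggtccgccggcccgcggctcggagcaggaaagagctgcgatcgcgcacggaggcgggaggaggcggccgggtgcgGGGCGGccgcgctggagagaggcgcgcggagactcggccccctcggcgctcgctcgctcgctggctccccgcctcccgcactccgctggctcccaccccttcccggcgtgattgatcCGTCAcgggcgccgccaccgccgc
The window has a GC content of 78.8% and 39 CpG dinucleotides, compared with medians of 51.2% and 5 over 33469 promoter windows of the same length, of which 1.16% hold more CpG. Searched on both strands, GGGCGG is present in 30.5% of these windows, TGACG in 18.2% and TATAAA, the TATA box, in 12.9%, and the motifs do not overlap each other in the Gabbr2 window. RefSeq windows were matched for 6 of the 8 genes. GGGCGG also occurs in those of Chrm2, Galr1 and Grm7 but in neither of the 2 Oprm1 windows nor in that of Npy2r, TGACG occurs in that of Gabbr2 alone among the 6 genes, and TATAAA in none. The windows of Chrm2 and Grm7 have 9 CpG each, that of Galr1 has 15, that of Npy2r has 3 and those of Oprm1 have 2 and 13. A match of letters does not show that a factor binds there.

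Among the opioid receptor genes, Oprl1 (ENSRNOG00000016768), which encodes the nociceptin receptor, had 692 counts (65.8 CPM) in replicate 1 and 1756 counts (60.9 CPM) in replicate 2, with a mean of 63.3 ± 3.43 CPM. Oprm1 (ENSRNOG00000018191) encodes the µ-opioid receptor, the main target of morphine, and had 201 counts (19.1 CPM) in replicate 1 and 722 counts (25.0 CPM) in replicate 2. The Oprm1 intervals, from 16.6 to 21.9 CPM and from 23.3 to 26.9 CPM, did not overlap, and its mean was 22.1 ± 4.20 CPM. The reads of Oprl1 and Oprm1 thus lay far apart in both libraries, and Oprl1 was the higher in each. Oprm1 has many splice forms, and the counts do not separate them.

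Cnr1 (ENSRNOG00000008223), the gene of the cannabinoid receptor for anandamide and 2-arachidonoylglycerol, had 382 counts (36.3 CPM) in replicate 1 and 1265 counts (43.9 CPM) in replicate 2. Its mean of 40.1 ± 5.36 CPM stood between Oprl1 and Oprm1, and its range over the libraries met neither of theirs.

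The remaining 4 genes had lower means. Grm7 (ENSRNOG00000005662), a presynaptic glutamate receptor with a low affinity for glutamate, had 199 counts (18.9 CPM) in replicate 1 and 591 counts (20.5 CPM) in replicate 2, and ranked below Oprm1 in each. In replicate 2 the interval of Grm7, from 18.9 to 22.2 CPM, lay below that of Oprm1, while over the rats the ranges of these genes overlapped. Chrm2 (ENSRNOG00000046972), a muscarinic acetylcholine receptor, had 145 counts (13.8 CPM) and 417 counts (14.5 CPM). The values of Chrm2 differed little between the rats and lay below both values of Grm7.

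Galr1 (ENSRNOG00000016654), which responds to the neuropeptide galanin, had 91 counts (8.65 CPM) in replicate 1 and 312 counts (10.8 CPM) in replicate 2. Npy2r (ENSRNOG00000049213), a receptor for neuropeptide Y and peptide YY, had 94 counts (8.93 CPM) in replicate 1 and 245 counts (8.50 CPM) in replicate 2. Galr1 and Npy2r exchanged places between the libraries, with Npy2r the higher in replicate 1 and Galr1 in replicate 2. Their intervals overlapped in replicate 1, so their order in that rat was not resolved and a reversal between the rats was not shown. In replicate 2 the intervals did not overlap, at 9.66 to 12.1 CPM for Galr1 and 7.47 to 9.63 CPM for Npy2r. Both lay close to the median of all detected genes, and 51.0% and 49.3% of these genes had a lower mean CPM.

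**Figure D1:**
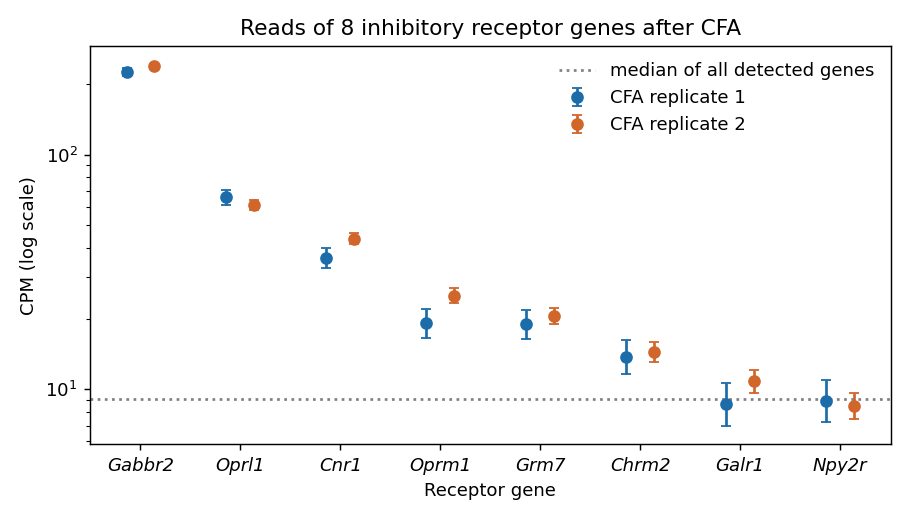
CPM of the 8 receptor genes (x axis) in CFA replicate 1 (blue) and CFA replicate 2 (orange) on a log axis, with bars for the 95% Poisson interval of each count and a dotted line at 9.09 CPM, the median of all detected genes. Gabbr2 stands at 225 and 237 CPM, and Galr1 and Npy2r lie between 8.50 and 10.8 CPM, around the dotted line.

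How well the rats agreed was examined for each receptor by the ratio of its CPM in replicate 2 to that in replicate 1, with an exact binomial (Clopper-Pearson) interval at 95%. The ratio compares libraries of the same condition, and no p-value was drawn from it. Over the 15115 genes that reached 10 counts in each library, the log2 ratio had a median of -0.01 and an SD of 0.29. The 8 receptors passed this minimum and had a median log2 ratio of 0.10, from -0.11 for Oprl1 to 0.39 for Oprm1. The ratio was above 1 for 6 of them, against 47.5% of all genes tested.

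Oprm1 had the largest difference of the 8 genes, with a ratio of 1.31 (interval 1.12 to 1.54) and a log2 ratio of 0.39. The log2 ratio was smaller in size in 87.8% of the genes tested. Galr1 followed with a log2 ratio of 0.32 (interval -0.02 to 0.68), and Cnr1 with a ratio of 1.21 (interval 1.08 to 1.36). The interval of Galr1 included 0 on the log2 scale, so a difference between the rats was not resolved for this gene, and that of Cnr1 did not include 1.

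Gabbr2 had a ratio of 1.06 (interval 1.01 to 1.11), which its many reads set apart from 1 although the rats differed by less than for most genes: 33.4% of the genes tested had a smaller log2 ratio in size. For Grm7 the ratio was 1.08, for Chrm2 1.05, for Npy2r 0.95 and for Oprl1 0.93, and each of these 4 intervals included 1. The receptors whose interval left out 1 were thus Oprm1, Cnr1 and Gabbr2, 3 of 8, while 25.6% of all genes tested had such an interval. All 3 intervals lay above 1, as did those of 11.4% of all genes tested, and an interval narrows as the reads of a gene increase. A log2 ratio of more than 0.322 in size was found for Oprm1 and Galr1, 2 of 8, against 17.2% of all genes tested, and Galr1, at 0.323, lay at the limit. With 100 counts required in each library, the limit was passed by Oprm1 alone of 6 receptors and by 8.13% of genes. With a pseudocount of 1 CPM, Galr1 fell to 0.29 and Oprm1 alone passed. The shares of receptors were not tested against those of all genes.

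**Figure D2:**
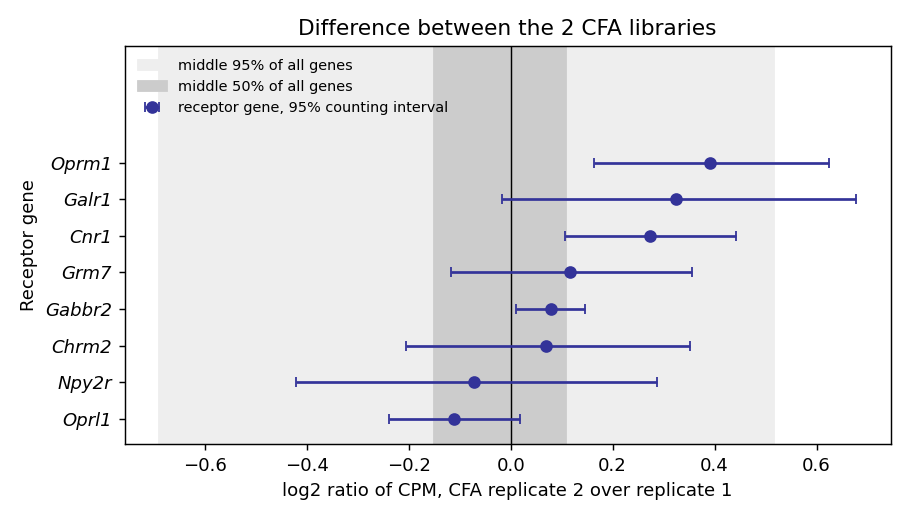
Log2 ratio of CPM in CFA replicate 2 over CFA replicate 1 (x axis) for the 8 receptor genes (y axis), with 95% binomial intervals, over shaded bands for the middle 50% and the middle 95% of 15115 genes. The points run from -0.11 for Oprl1 to 0.39 for Oprm1, and all lie inside the wider band, which ends at -0.69 and 0.52.

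Markers of cell types differed in part between the same libraries. The log2 ratio had a median of 0.00 over the 8 markers of sensory neurons, from -0.07 for Stmn2 to 0.21 for Nefh, with 3 intervals above a ratio of 1 and 2 below. It had a median of 0.07 over the 11 markers of nociceptors, from -0.20 for Calcb to 0.52 for Trpm8, with 6 intervals above 1 and 3 below. Over all genes tested, 11.4% of intervals lay above 1 and 14.2% below. The markers of both lists drew more reads than the median gene tested, at 21.4 CPM, and more reads make narrower intervals. Of the 6 satellite glia genes, 5 were lower in replicate 2, against 52.5% of all genes tested. For 4 of the 6 the interval lay below 1, against 14.2%. Among these 4, S100b and Ttyh1 drew many reads, with means of 1145 and 274 CPM. Their log2 ratios of -0.04 and -0.12 lay above the lower quartile of all genes tested, -0.15. Rlbp1 and Gfap, with means of 3.73 and 17.3 CPM, had log2 ratios of -0.58 and -0.56. Rlbp1 had 47 and 86 counts and Gfap 217 and 402. Because read depth differs among genes, 4 of 6 does not compare directly with 14.2%. A common shift of the satellite glia genes was not tested. Of the 7 Schwann cell genes, 4 were higher in replicate 2, with a median log2 ratio of 0.01 and with 2 intervals above 1 and 1 below, that of Mbp. The summed level of the 6 genes listed for satellite glia, most of it S100b, was 1556 CPM in replicate 1 and 1490 CPM in replicate 2. Which cells the S100b reads came from was not tested, so this sum is not a level of satellite glia alone. The summed level of the sensory neuron genes was 36398 and 37664 CPM, and that of the Schwann cell genes, most of it Mbp, 3455 and 3348 CPM. The muscle gene Myh6 had a log2 ratio of -0.73. The part of these markers in the higher Oprm1 and Cnr1 values of replicate 2 was not tested.

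The pathway around the receptors was examined through 86 genes in 7 lists, of which 25 could be tied to an identifier of the count table through the study's gene tables and 61 were not analysed here. The 25 genes therefore come from tables of genes the study had selected, in part on these libraries, and the inhibitory α subunits, the partner subunit of Gabbr2 and the arrestins are among the genes not analysed. The values below say how many reads the pathway drew after CFA and how closely the rats agreed. Over all genes tested, 25.6% had an interval of the ratio between the libraries that left out 1.

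Of 21 other receptors of the Gi/o class, 2 were measured. Htr1b, a serotonin receptor and the target of triptans, had 17.6 CPM in replicate 1 and 15.1 CPM in replicate 2. Gpr81, the lactate receptor, had 37 counts (3.52 CPM) and 55 counts (1.91 CPM), with a log2 ratio of -0.88 whose interval, from -1.51 to -0.24, left out 0. Both were lower in replicate 2, and the interval of Htr1b, from -0.47 to 0.04 on the log2 scale, included 0.

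On the side of the ligands, 4 of 15 genes were measured. Penk, the precursor of the enkephalins, had 48 counts (4.56 CPM) in replicate 1 and 163 counts (5.65 CPM) in replicate 2. Gad1, an enzyme that makes GABA, had 28 and 67 counts, or 2.49 ± 0.24 CPM. Mgll, the lipase that breaks down 2-arachidonoylglycerol, had 121 ± 8.30 CPM. Slc17a6, the vesicular transporter that loads glutamate, had 179 CPM in replicate 1 and 217 CPM in replicate 2. The precursor of the opioid peptides that was measured was thus detected at few reads, and the transporter for glutamate and the lipase for the endocannabinoid at many. Slc17a6 and Mgll were higher in replicate 2, with log2 ratios of 0.28 (interval 0.20 to 0.35) and 0.14 (interval 0.05 to 0.24). For Penk and Gad1 the interval included 0.

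Of 14 G protein subunits, 3 were measured and none is an α subunit of the Gi/o class. Gna12, of another α class, had 147 ± 3.91 CPM. The γ subunit gene Gng8 had 38 counts (3.61 CPM) and 65 counts (2.25 CPM), with a log2 ratio of -0.68 (interval -1.28 to -0.06). The β subunit gene Gnb3 had 4 and 3 counts, too few for a level.

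RGS proteins end the signal by speeding the hydrolysis of GTP on the α subunit, and 4 of 10 such genes were measured. Rgs7, which acts on the Gi/o class, had 61.9 ± 1.42 CPM and a log2 ratio of -0.05. Rgs17 and Rgs20, close relatives that also act on this class, had 25.2 ± 3.51 and 5.68 ± 0.65 CPM, and Rgs16 had 3.64 ± 0.49 CPM. Rgs17 was higher in replicate 2 by a log2 ratio of 0.29 (interval 0.07 to 0.50).

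Adenylyl cyclases, the enzymes that these receptors restrain, were represented by 4 genes, listed with a kinase subunit among 5 of 10 measured. Adcy6, a form that the inhibitory α subunit slows, had 35.0 ± 1.11 CPM. Adcy2, Adcy7 and Adcy4, forms that the βγ pair can stimulate, had 25.8 ± 1.06, 23.8 ± 2.46 and 2.60 ± 0.49 CPM. Prkar1b, a regulatory subunit of the kinase that cyclic AMP activates, had 177 ± 0.98 CPM. The interval of the ratio between the libraries included 1 for these 5 genes.

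The channels on which the βγ pair acts were measured for 6 of 9 genes, with a median of 101 CPM. Cacna1b and Cacna1a, which form the pores of the N-type and P/Q-type calcium channels of nerve endings, had 141 ± 15.0 and 99.8 ± 2.11 CPM. Their auxiliary subunits were at 148 ± 21.0 CPM for Cacna2d1, the target of gabapentin, at 102 ± 1.80 CPM for Cacna2d3 and at 68.8 ± 2.02 CPM for Cacnb4. Kcnj9, a subunit of the inwardly rectifying potassium channel, had 21 counts in replicate 1 and 59 counts in replicate 2, or 2.02 ± 0.04 CPM. The calcium channel genes thus drew many reads in both rats, and Kcnj9, the only potassium channel gene measured, few. With 3 of the 9 channel genes not analysed, the level of the potassium channel as a whole was not tested. Cacna1b and Cacna2d1 were higher in replicate 2, with log2 ratios of 0.22 (interval 0.13 to 0.31) and 0.29 (interval 0.20 to 0.38), and for the other 4 channel genes the interval included 0. Of 7 genes of receptor desensitisation, Grk4, a receptor kinase, was measured and had 21 and 84 counts, or 2.46 ± 0.65 CPM.

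**Figure D3:**
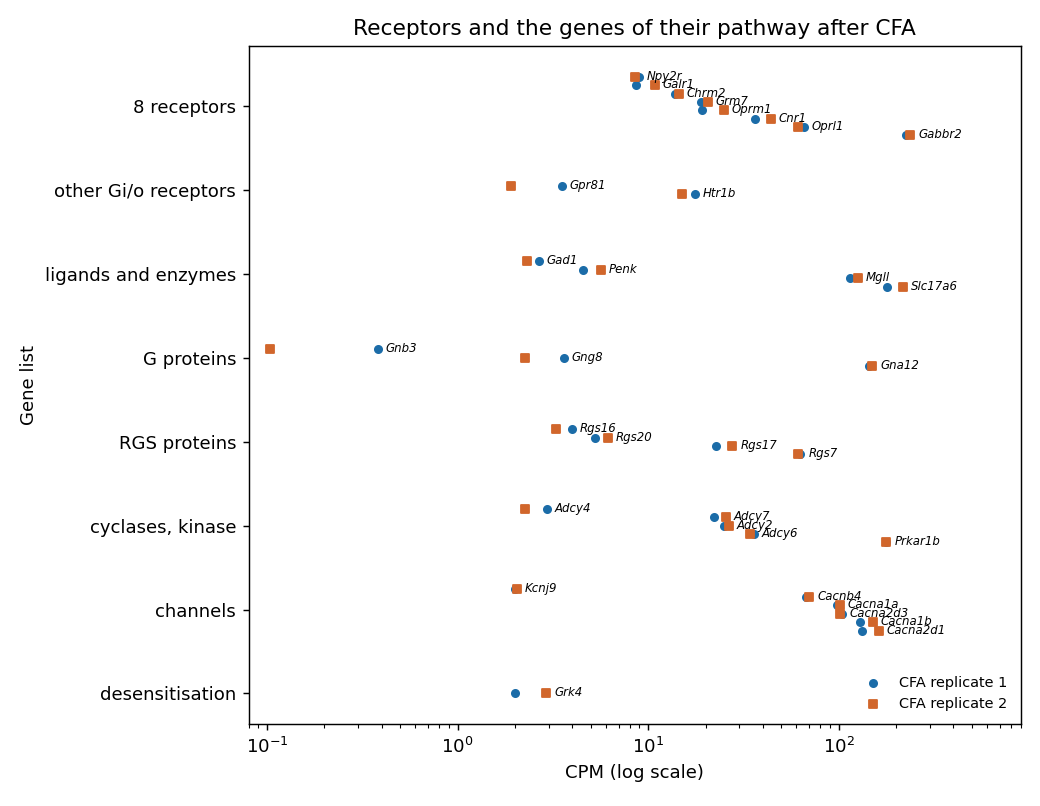
CPM on a log axis of the 8 receptor genes and of 25 genes of their pathway, by list (y axis), with a circle for CFA replicate 1 and a square for CFA replicate 2. The calcium channel genes lie between 67.4 and 163 CPM, while Kcnj9, Grk4, Gad1 and Gng8 stay below 4 CPM.

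Receptors that the study discussed beside the inhibitory ones, listed here as coupling mainly in other ways or through no known G protein, were used to place the 8 genes. Whether any of them also acts through the Gi/o class was not examined. These 7 genes, Gpr158, Chrm3, Htr2a, Htr2b, Ptger4, Mrgprx1 and Mrgpre, had a median of 11.3 CPM and lay between 1.06 and 146 CPM. The inhibitory receptors had a median of 20.9 CPM, and most genes of either set lay within the range of the other. Both sets come from gene tables that the study had selected, in part on these libraries. The log2 ratios of the 7 genes between the libraries had a median of 0.14, from -0.74 for Htr2b, at 14 and 23 counts, to 0.45 for Htr2a. The interval left out 0 for 2 of the 7, Gpr158 and Htr2a, against 25.6% of all genes tested. A log2 ratio of more than 0.322 in size was found for 3 of the 7, against 17.2%. The muscarinic pair can be set side by side: Chrm3, which couples to another G protein class, had 6.65 CPM in replicate 1 and 7.32 CPM in replicate 2, and Chrm2 had 13.8 and 14.5 CPM. The Mrgpr genes resemble each other in sequence, which may make the counts of Mrgprx1 and Mrgpre uncertain. Whether reads were shared among these genes was not tested.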

How the data were processed

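Raw counts per Ensembl gene were deposited by the authors for RNA-seq. Strand-specific poly(A) libraries had been aligned with HISAT2 to the rn6 genome, filtered for ribosomal RNA and counted with featureCounts, and the strand setting of the counting is not given in the sources used here, so overlapping genes may share reads. The members and the gene lists were chosen with earlier results of these data known. Named genes are the 8 receptors, 7 pathway lists, 7 other receptors and the markers of sensory neurons, nociceptors, satellite glia, Schwann cells, vessels and fibroblasts, muscle, mast cells and macrophages. None of the 5 macrophage genes could be paired with an identifier. Symbols were taken from the study's supplementary gene tables, of which no value was used, since the RefSeq gene table holds no Ensembl identifiers. Transcript lengths were not used here.

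Counts were divided by the library total (CPM), and the mean ± SD of the 2 libraries is given. Intervals at 95% are exact Poisson intervals for counts and Clopper-Pearson intervals for ratios, and both cover counting error only. The intervals for ratios, but not those for counts, were run on simulated counts. The simulated counts held counting error alone, so this run checks the calculation and says nothing of differences between rats. Ratios are given for genes that reached 10 counts in each library, and a count of 0 would allow up to 0.29 CPM in replicate 1 and 0.10 CPM in replicate 2, from 3 counts. Alternatives were TMM sizes from edgeR 4.0.16, median-of-ratios factors, a total without the 5 genes with the highest counts, a pseudocount of 1 CPM, single libraries and a minimum of 100 counts. Ratios were also taken with no filter on low counts. Calculations and figures were made in Python 3.11.15 (scipy 1.17.1, pandas 2.3.3, matplotlib 3.10.9).

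The authors also deposited log2 normalized ATAC-seq coverage of regions of rn6. No annotation of rn6 was used here, so no region could be tied to a receptor gene, and these tables were not analysed.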

Additional observations from a re-analysis of the deposited data

How the results depend on the processing

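No paired analysis was possible because the RNA values come from 1 group and from no test between groups. Of 90 values recomputed under the alternatives for 18 results, 85 were labelled the same, 5 moved and 0 reversed. CPM values were judged by the spread between the libraries and ratios by the counting interval. The number of receptors that differed by a log2 ratio over 0.322 was judged by its relative change instead. Part of the 85 was fixed in advance. With 2 libraries, each single-library value lies within 1 SD of the mean. Leaving out the filter on low counts could change no ratio, since every receptor passes it. The 85 therefore overstates how much was put to the test. Without the 5 genes with the highest counts in the total, every CPM value rises by construction, and the means of Gabbr2, Chrm2 and Npy2r became 242, 14.8 and 9.14 CPM, further from the reported value than 1 SD. With a minimum of 100 counts in both libraries, 6 receptors were left, and the number that differed by a log2 ratio over 0.322 fell from 2 to 1, Oprm1, because Galr1 was no longer counted, against 8.13% of all genes. With a pseudocount of 1 CPM, applied to this number after seeing the data, it was also 1, since Galr1 fell to a log2 ratio of 0.29. Under TMM and median-of-ratios sizes the number stayed at 2, and the median over the receptors was 20.90 and 20.8 CPM. In single libraries it was 19.0 and 22.8 CPM. Division by length was not run because transcript lengths were not used, and the planned ATAC-seq alternatives were not run because no region could be tied to a receptor gene. Depth limits Galr1 and Npy2r most, with fewer than 100 counts each in replicate 1. With 2 rats, the SD itself is known only roughly.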
